A study of Mus musculus with 8 samples.

Results

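The mouse collagen genes were described in bulk RNA sequencing of gastrocnemius, the large calf muscle. A gene was counted as a collagen when its symbol had the form Col, a type number, the letter a and a chain number. This gave 44 of the 21833 gene symbols in the count tables. Each member was placed in a class by textbook knowledge of its protein: 11 fibrillar chains, 6 basement membrane chains, 6 beaded filament chains, 9 fibril-associated chains (FACIT), 4 transmembrane chains, 3 short chain network chains, 2 multiplexins, 1 anchoring fibril chain and 2 others. The rule and the classes read symbols only, but they were chosen with earlier results of these data known.

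All 8 libraries came from male C57BL/6J mice aged 12 weeks. Every mouse, in both groups, received 100 µL of pooled K/BxN serum into the peritoneum on day 0 and again on day 2. K/BxN mice develop arthritis driven by autoantibodies, and their serum passes a transient arthritis to recipients. By the sample titles, the RA mice (n = 4) had no dipyridamole. The RA+Dipy mice (n = 4) were given it daily as well as the serum, at 25 mg/kg/day from day 0. Dipyridamole inhibits the equilibrative nucleoside transporter, so that extracellular adenosine increases, and also inhibits phosphodiesterases. Muscle was collected on day 16. The sources used here do not state what the RA mice received in place of the drug, and muscle without arthritis was not analysed here. Groups were taken from the sample titles, since the labels are not uniform: the genotype entry reads K/BxN for serum recipients, and the treatment protocol names dipyridamole for the RA samples too. The comparison asks how collagen transcript levels in arthritic muscle differ with dipyridamole.

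Collagens are the main structural proteins of connective tissue. A collagen chain carries stretches in which glycine recurs at regular spacing, leading each triplet of residues, which lets chains wind into a triple helix. Fibrillar collagens are trimmed outside the cell and assemble into fibrils, FACITs coat those fibrils, type IV forms the sheet of the basement membrane around each myofibre and capillary, and type VI forms beaded filaments that link that sheet to the fibrils around it. In muscle, most fibrillar collagen is made by fibroblasts of the endomysium and perimysium and by cells of the tendon.

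The glycine repeat could be read directly in the gene structure. In GENCODE vM21, a gene annotation of GRCm38, 305 of the 627 internal coding exons of the fibrillar genes (48.6%) were exactly 54 bases long, which is 6 glycine-led triplets or 18 codons. Among the other protein-coding genes of the tables, 690 of 155706 internal coding exons (0.443%) had that length. All 305 fibrillar exons of 54 bases began on a codon boundary, and 302 of them (99.0%) held a glycine codon at the head of each of the 6 triplets. The 6 basement membrane genes were built otherwise, with 12 of 284 internal coding exons at 54 bases (4.23%). The first exon of this kind is shown, 5′ to 3′, for the 3 most abundant fibrillar genes and for Col5a2, with the glycine codon that opens each triplet in capitals. They lie at chr11:94939904-94939957 (+ strand, Col1a1), chr6:4515481-4515534 (+ strand, Col1a2), chr1:45325360-45325413 (+ strand, Col3a1) and chr1:45434892-45434945 (- strand, Col5a2) of GRCm38.
Col1a1: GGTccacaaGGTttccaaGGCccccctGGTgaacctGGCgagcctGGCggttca
Col1a2: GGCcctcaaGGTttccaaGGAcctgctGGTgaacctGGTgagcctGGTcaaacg
Col3a1: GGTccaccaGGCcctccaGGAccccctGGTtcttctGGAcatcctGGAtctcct
Col5a2: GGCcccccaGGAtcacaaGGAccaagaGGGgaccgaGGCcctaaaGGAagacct
The GC content of these 4 exons was 64.8%, 59.3%, 63.0% and 63.0%. Over whole transcripts, the 39 collagens tested had a median GC content of 55.7% (46.8% to 64.1%), against 50.7% for all 12604 tested genes with a transcript match.

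Library totals lay between 16.4 and 50.6 M (mega) counts. Levels are in CPM, for which each library's counts were divided by its TMM-scaled total. On totals before TMM scaling, a count of 0 allows at most 0.183 CPM in the shallowest library and 0.0592 CPM in the deepest, counting error only. These limits were not computed on the TMM-scaled totals. RA replicate 4 and RA+Dipy replicate 1 stood apart from the other 6 libraries. Over 4757 genes with a mean of at least 20 CPM, the standard deviation of their log2 deviations from the 8-library median was 1.20 and 0.81, against 0.17 to 0.35 in the others. The biological coefficient of variation between replicates that edgeR estimated was 0.386, and it was 0.183 once those 2 were left out. Class medians and the fold changes that results turn on are therefore given with and without these 2 outlying libraries, which were picked from these same counts. Tissue markers matched the label, with 8 myofibre genes at a summed 146021 to 230066 CPM. Skin keratins Krt5 and Krt14 summed to at most 0.192 CPM. The 7 cartilage and bone markers summed to 29.3 to 95.6 CPM, and of these only Bglap was at 0 in all 8 libraries.

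Type I collagen led the family. Set per kilobase of transcript, which allows levels of different genes to be compared, Col1a2 averaged 124 CPM per kb over the 8 libraries (72.7 to 225) and Col1a1 averaged 120 (51.0 to 308). These 2 chains form the type I heterotrimer, the main fibril protein of tendon and perimysium, and their ranges overlapped. Col3a1, the type III chain of fine reticular fibrils, followed at 46.5 CPM per kb (8.17 to 110). Next came the type VI and type IV chains. Col6a2 was at 32.3 CPM per kb, Col6a1 at 22.9, Col4a1 at 22.0 and Col4a2 at 15.6, and the ranges of neighbours in this order overlapped. Together the 2 type I genes took between 41.6% (RA replicate 2) and 71.2% (RA replicate 4) of all collagen counts.

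**Figure D1:**
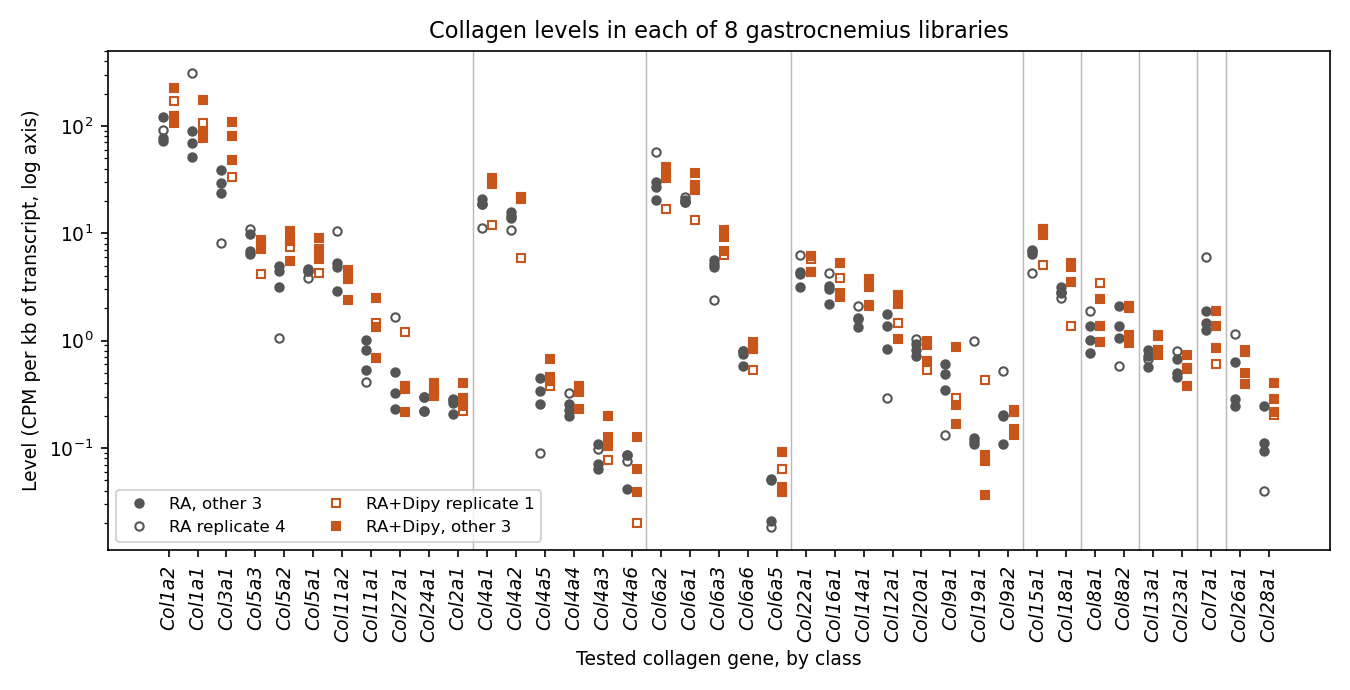
Level of each of the 39 tested collagen genes in each of the 8 libraries, in CPM per kb of transcript on a log axis, with genes ordered by level within classes split by vertical lines (from left: fibrillar, basement membrane, beaded filament, FACIT, multiplexin, short chain network, transmembrane, anchoring fibril, other). Grey circles are RA mice and orange squares RA+Dipy mice, with RA replicate 4 and RA+Dipy replicate 1 drawn open; Col1a2, Col1a1 and Col3a1 lead, and the open symbols often lie at the edge of their group.

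Collagens took a small share of the library in both groups. That share was 0.176%, 0.188%, 0.213% and 0.230% of counts in RA replicates 1 to 4, and 0.220%, 0.246%, 0.446% and 0.322% in RA+Dipy replicates 1 to 4. The groups overlapped, with RA+Dipy replicate 1 below RA replicate 4, and RA+Dipy replicate 3 was the highest of the 8. Means were 0.202% ± 0.0244 and 0.309% ± 0.101 (SD, n = 4 each), a difference of 0.107 percentage points that fell to 0.0610 without RA+Dipy replicate 3. Without Col1a1, Col1a2 and Col3a1 the means were 0.0772% and 0.110%. In bulk tissue, the number of collagen-making cells and the collagen RNA per cell cannot be told apart.

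Of the 44 collagens, 39 passed the filter on low counts and were tested among 12755 genes. None passed an adjusted p of 0.05 in edgeR's quasi-likelihood test (Benjamini-Hochberg over all genes tested), and 0% of the 12755 genes did in either direction. The log2 fold change of RA+Dipy over RA was above 0 for 27 of the 39, against 52.2% of all genes tested, and below 0 for 12. Its median was 0.37 over the collagens and 0.02 over all genes tested. At an unadjusted p under 0.05, 7 collagens had higher values with dipyridamole (background 1.68%) and 0 had lower values (background 2.15%): the fibrillar Col1a2, Col3a1, Col5a2 and Col11a1, the beaded filament chain Col6a3, the FACIT Col14a1, and Col28a1. DESeq2 also gave 0 adjusted calls. Its unadjusted threshold was passed by 8 collagens in the higher direction (background 2.07%) and 1 in the lower (background 3.73%). In limma-voom 0 passed after adjustment, and before it 7 were higher (background 1.78%) and 0 lower (background 1.08%). For 3 members the 4 RA+Dipy values all exceeded the 4 RA values (background 1.46%): Col5a2, Col6a3 and Col24a1, while 0 were lower throughout (background 1.26%).

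The values depended on single libraries. Without RA replicate 4 and RA+Dipy replicate 1, 32 of 39 log2 fold changes were above 0 (background 51.3%), the median was 0.49, and edgeR gave 15 collagens with higher values at an unadjusted p under 0.05 (background 5.96%) and 0 with lower ones (background 5.45%). Still 0 passed the adjusted threshold. In those 6 libraries 14 collagens did not overlap between groups in the higher direction (background 7.9%) and 1, Col19a1, in the lower (background 6.23%). When limma-voom gave each library a weight from its own scatter (RA replicate 4 at 0.110, RA+Dipy replicate 1 at 0.174), 8 collagens passed the adjusted threshold, all higher with dipyridamole, against 0.894% of all genes, and 33 of 39 values were above 0 (background 51.4%). The 8 were Col3a1, Col5a1, Col5a2, Col4a1, Col6a3, Col14a1, Col15a1 and Col28a1. Of all genes, 0.188% passed it with lower values. At an unadjusted p under 0.05 in that fit, 21 collagens were higher (background 13.9%) and 1, Col19a1, lower (background 14.4%). Leaving out RA+Dipy replicate 3, the library with the highest collagen share, took the median log2 fold change from 0.37 to 0.20 and left 1 collagen higher at an unadjusted p under 0.05 in edgeR (background 0.831%) and 0 lower (background 0.598%). Without RA replicate 1 the numbers were 3 higher (background 0.729%) and 0 lower (background 1.57%). Without RA+Dipy replicate 1 they were 12 higher (background 2.39%) and 0 lower (background 2.95%).

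**Figure D2:**
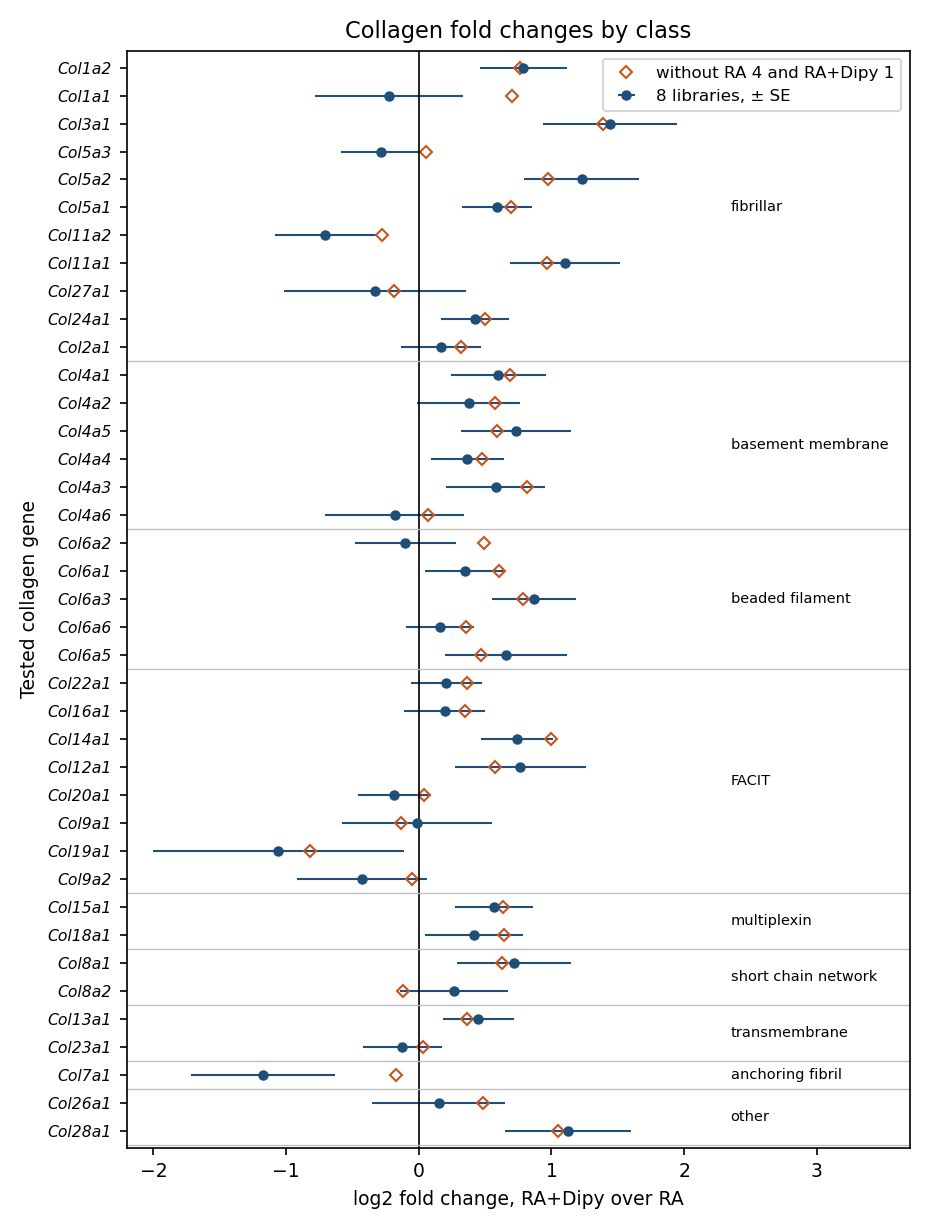
Log2 fold change (RA+Dipy over RA) of each tested collagen, by class. Blue points with bars are the edgeR estimates ± SE from 8 libraries, and orange diamonds the estimates without RA replicate 4 and RA+Dipy replicate 1; most points lie right of 0, and Col1a1, Col6a2 and Col7a1 move right when those 2 libraries are left out.

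The 11 fibrillar genes had a median log2 fold change of 0.42, with 7 above 0 and 4 below, and 0.70 (9 above, 2 below) without the 2 outlying libraries. Col3a1 (ENSMUSG00000026043, chr1:45311538-45349706, + strand) stood at 132, 215, 165 and 45.5 CPM in RA replicates 1 to 4, and at 186, 270, 609 and 448 CPM in RA+Dipy replicates 1 to 4. RA+Dipy replicate 1 lay below RA replicate 2, so the groups overlapped, and the lowest value by far was RA replicate 4. Means were 139 ± 71.1 and 378 ± 189 CPM (SD, n = 4), a log2 fold change of 1.44 (SE 0.51, edgeR adjusted p = 0.882), and 1.39 without the 2 outlying libraries. Col5a2 encodes a chain of type V, which is buried in type I fibrils and sets their diameter. It lies beside Col3a1 on chromosome 1, tail to tail across a gap of 24614 bases (chr1:45374321-45503282, - strand). Its level was 21.1, 33.0, 29.5 and 6.93 CPM in the RA replicates and 49.4, 36.2, 70.1 and 56.7 CPM in the RA+Dipy replicates. All 4 RA+Dipy values exceeded all 4 RA values, with a log2 fold change of 1.23 (SE 0.43, edgeR adjusted p = 0.882), and 0.98 without the 2 outlying libraries.

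The type I chains did not share a direction with all libraries in. For Col1a2 (chr6:4504814-4541544, + strand) the RA values were 409, 389, 651 and 491 CPM and the RA+Dipy values 921, 566, 1201 and 664 CPM, and only RA+Dipy replicate 2 lay within the RA range. Its log2 fold change was 0.79 (SE 0.33, edgeR adjusted p = 0.882), and 0.76 without the 2 outlying libraries. Col1a1 (chr11:94936224-94953042, + strand) gave 408, 302, 530 and 1825 CPM in RA and 624, 458, 1023 and 523 CPM in RA+Dipy. RA replicate 4 was more than all other libraries, and the log2 fold change of -0.22 became 0.68 without it. Col11a1, a minor fibril chain best known from cartilage (chr3:114030540-114220718, + strand), was at 4.10, 6.30, 7.77 and 3.13 CPM in RA and 11.2, 5.28, 19.2 and 10.3 CPM in RA+Dipy, where replicate 2 alone fell within the RA range (log2 1.10, SE 0.42, and 0.96 without the 2 outlying libraries). For Col5a1, the partner chain of Col5a2, the log2 value was 0.59 (SE 0.27), and for the low-level Col24a1 it was 0.42 (SE 0.26) with groups that did not overlap. Without the 2 outlying libraries these were 0.70 and 0.50. With all libraries in, the 4 fibrillar genes with values below 0 were Col1a1, Col5a3 (-0.29), Col11a2 (-0.70) and Col27a1 (-0.33), and each of these was highest in RA replicate 4. Leaving out RA replicate 4 alone put Col27a1 at 0.58, and leaving out RA+Dipy replicate 1 alone put it at -1.07. Without both outlying libraries Col5a3 stood at 0.052, Col11a2 at -0.28 and Col27a1 at -0.19.

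RefSeq promoters (GRCm38.p6, up to 250 bases before the start) were in the table for 35 of the 44 members and for 5 of the 7 with an unadjusted p under 0.05. They are shown, 5′ to 3′ on the gene's strand, for the 3 fibrillar genes of that group with an entry, Col11a1 (chr3:114030290-114030539), Col1a2 (chr6:4505370-4505492, the part outside annotated exons) and Col3a1 (chr1:45311288-45311537). Capitals mark matches to 4 motifs searched on both strands. The CCAAT box was searched as its own letters, CCAAT. The letters of the GC box were GGGCGG. For the TATA box TATAAA was taken, and for the element bound by SMAD proteins CAGAC. No marked match overlaps another.
Col11a1: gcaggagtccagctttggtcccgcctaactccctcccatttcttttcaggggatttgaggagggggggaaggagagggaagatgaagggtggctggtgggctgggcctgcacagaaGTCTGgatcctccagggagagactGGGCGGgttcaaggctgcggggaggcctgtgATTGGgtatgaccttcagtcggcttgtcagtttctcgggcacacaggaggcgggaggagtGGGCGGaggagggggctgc
Col1a2: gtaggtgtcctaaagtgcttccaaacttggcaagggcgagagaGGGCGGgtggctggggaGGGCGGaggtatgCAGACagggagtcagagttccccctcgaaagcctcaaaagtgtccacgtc
Col3a1: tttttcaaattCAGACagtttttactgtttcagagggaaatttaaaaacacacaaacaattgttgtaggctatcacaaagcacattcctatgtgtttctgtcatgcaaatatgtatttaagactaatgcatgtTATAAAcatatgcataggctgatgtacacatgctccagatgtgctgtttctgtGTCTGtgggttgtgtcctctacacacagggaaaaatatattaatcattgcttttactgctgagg
GC content and matches were taken over the full 250 bases, of which 127 in Col1a2 lie in annotated exons. Col11a1 and Col1a2 were 62.4% and 62.0% GC, each with 2 GC boxes, 1 CCAAT box and 1 SMAD element. The CCAAT box of Col1a2, 109 bases before the start, lies outside the part shown. Col3a1 differed, at 35.2% GC with 1 TATA box, 2 SMAD elements and no GC box. A GC box was found in 57.9% of the 38 collagen promoters (some genes have several) and in 32.7% of all 32851 promoters. The CCAAT box was in 34.2% against 33.8%, the TATA box in 13.2% against 12.4%, and the SMAD element in 44.7% against 42.2%. Such matches are descriptions of letters, not of bound sites.

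Basement membrane chains had a median log2 fold change of 0.48, with 5 of 6 above 0, and of 0.58, with 6 above 0, when the 2 outlying libraries were left out. Col4a1 and Col4a2, which together make the type IV network of all basement membranes, lie head to head on chromosome 8 with starts 21 bases apart, and exons that overlap by 22 bases (chr8:11198423-11312826, - strand, and chr8:11312805-11449287, + strand). Col4a1 stood at 125, 139, 125 and 73.3 CPM in RA and at 78.6, 192, 216 and 214 CPM in RA+Dipy. Col4a2 stood at 88.5, 101, 92.8 and 68.9 CPM in RA and at 37.9, 141, 135 and 141 CPM in RA+Dipy. In both genes RA+Dipy replicate 1 fell inside or below the RA range, and the other 3 RA+Dipy libraries exceeded all 4 RA libraries. The log2 fold changes were 0.60 (SE 0.36) and 0.38 (SE 0.39), and 0.69 and 0.57 without the 2 outlying libraries. Col4a5, a chain of the specialised type IV networks, was at 1.67, 2.96, 2.23 and 0.592 CPM in RA and 2.44, 2.77, 3.00 and 4.40 CPM in RA+Dipy, with overlapping groups and a log2 fold change of 0.73 (SE 0.42, and 0.59 without the outlying pair). Its head-to-head neighbour Col4a6 had a value of -0.18, and the head-to-head pair Col4a3 and Col4a4 had 0.58 and 0.37. These 3 were at 0.069, 0.81 and 0.48 without the outlying pair.

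Among the type VI chains, whose loss causes human muscle disease, 4 of the 5 tested had values above 0, with a median log2 fold change of 0.35, and all 5 did, with a median of 0.49, without the 2 outlying libraries. Col6a3, the large chain of the type VI monomer (chr1:90765923-90843971, - strand), was at 56.6, 52.6, 49.0 and 24.2 CPM in RA and at 63.2, 68.6, 109 and 93.2 CPM in RA+Dipy. The groups did not overlap, and the log2 fold change was 0.87 (SE 0.32, edgeR adjusted p = 0.882). Its partners overlapped. Col6a1 was at 82.7, 79.4, 80.4 and 88.4 CPM in RA and at 54.4, 103, 148 and 115 CPM in RA+Dipy (log2 0.35, SE 0.30), with replicate 1 the lowest of all 8 libraries. Col6a2 was at 117, 80.8, 107 and 223 CPM in RA and at 66.1, 130, 164 and 134 CPM in RA+Dipy, where RA replicate 4 was the highest and RA+Dipy replicate 1 the lowest. Its log2 fold change was -0.10 (SE 0.38), and 0.49 without those 2 libraries. Col6a1 and Col6a3 then stood at 0.60 and 0.78.

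FACIT genes divided evenly, 4 above and 4 below 0 with a median log2 fold change of 0.09. Without the 2 outlying libraries 5 were above and 3 below, with a median of 0.19. Col14a1, a fibril-coating chain of tendon and perimysium (chr15:55307750-55520803, + strand), was at 8.69, 10.1, 10.5 and 13.7 CPM in RA and at 13.7, 13.5, 24.1 and 20.3 CPM in RA+Dipy. RA replicate 4 reached the level of the 2 lowest RA+Dipy libraries. The log2 fold change was 0.74 (SE 0.27, edgeR adjusted p = 0.882), and 0.99 without the 2 outlying libraries. Col22a1, which marks the myotendinous junction, was the most abundant FACIT per kb, at 38.1, 27.6, 36.8 and 55.3 CPM in RA and 50.7, 38.6, 54.1 and 38.5 CPM in RA+Dipy. These groups overlapped fully, with a log2 fold change of 0.21 (SE 0.27, and 0.37 without the outlying pair). Col16a1 was at 15.8, 11.4, 16.7 and 22.0 CPM in RA and 19.8, 13.4, 27.7 and 14.4 CPM in RA+Dipy (log2 0.19, SE 0.30), also with overlap, and its value was -0.053 without RA+Dipy replicate 3. Col12a1, found with Col14a1 on tendon fibrils, stood at 0.76 on the log2 scale (SE 0.49) and at 0.57 without the outlying pair. RA replicate 4 held its lowest value, 3.38 CPM. The cartilage chains Col9a1 and Col9a2 had values of -0.01 and -0.43, which were -0.14 and -0.051 without the outlying pair. The low-level Col19a1 had the lowest value of the class, -1.06 (SE 0.95), and Col20a1 stood at -0.18 (SE 0.27). Without the outlying pair they were at -0.82 and 0.039, and without RA replicate 4 alone Col19a1 was at 0.31.

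Both multiplexins, which sit in basement membrane zones and carry endostatin-type ends, had values above 0. Col15a1, the multiplexin of muscle and capillary sheaths, was at 33.4, 36.2, 35.1 and 22.2 CPM in RA and at 26.3, 56.3, 56.4 and 49.3 CPM in RA+Dipy. Col18a1 was at 17.7, 16.0, 15.6 and 14.0 CPM in RA and at 7.65, 19.6, 29.8 and 27.4 CPM in RA+Dipy. In each gene 3 of 4 RA+Dipy libraries exceeded all RA libraries and RA+Dipy replicate 1 did not. Log2 fold changes were 0.57 (SE 0.30) and 0.41 (SE 0.37), and 0.64 and 0.65 without the 2 outlying libraries.

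The remaining classes held few genes at low levels. The short chain genes Col8a1 and Col8a2 form hexagonal lattices beneath endothelia. Col8a1 was at 5.14, 3.88, 6.95 and 9.72 CPM in RA and 17.7, 4.95, 12.5 and 7.0 CPM in RA+Dipy (log2 0.72, SE 0.43). Col8a2 was at 4.55, 5.95, 9.02 and 2.54 CPM in RA and 9.04, 4.14, 8.70 and 4.88 CPM in RA+Dipy (log2 0.27, SE 0.41). Both overlapped between groups, and without the outlying pair they stood at 0.63 and -0.12. Of the transmembrane chains, Col13a1, which acts at the neuromuscular junction, was at 2.27, 1.78, 2.58 and 2.11 CPM in RA and 3.5, 2.33, 3.58 and 2.56 CPM in RA+Dipy (log2 0.45, SE 0.27). Col23a1 was at 3.84, 2.60, 2.81 and 4.56 CPM in RA and 3.10, 3.18, 4.20 and 2.12 CPM in RA+Dipy (log2 -0.12, SE 0.30). These ranges overlapped too, and without the outlying pair the values were 0.36 and 0.035. Col28a1, a chain of peripheral nerve sheaths, was at 0.394, 1.03, 0.469 and 0.169 CPM in RA and 0.858, 0.923, 1.69 and 1.20 CPM in RA+Dipy, where RA replicate 2 alone reached the RA+Dipy range (log2 1.13, SE 0.48, edgeR adjusted p = 0.882), and 1.05 without the outlying pair. Col26a1 was at 1.71, 0.677, 0.781 and 3.13 CPM in RA and 2.24, 1.37, 2.12 and 1.08 CPM in RA+Dipy, with a log2 fold change of 0.15 (SE 0.50) that was 0.48 without the outlying pair.

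Col7a1, the anchoring fibril chain best known at the junction of epidermis and dermis, had the lowest log2 fold change of the family, -1.17 (SE 0.54, edgeR adjusted p = 0.882). Its level was 17.6, 13.4, 11.7 and 55.8 CPM in RA and 5.61, 17.3, 7.89 and 12.6 CPM in RA+Dipy. RA replicate 4 stood far above the other 7 libraries, and without it the value was -0.38. Without RA+Dipy replicate 1 as well it was -0.17. A microRNA gene, Mir711, shares 36 of its exon bases on the same strand. The 5 members under the low-count filter were Col9a3 (1 to 15 counts per library), Col6a4 (1 to 6), Col10a1 (0 to 2), Col17a1 (0 to 11) and Col25a1 (0 to 11). They belong to cartilage, skin and neurons among other tissues, and no fold change is given for them.

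Ratios between chains within a library do not depend on library size. Per kb, Col1a1 over Col1a2 lay between 0.612 and 0.899 in 7 libraries and was 3.35 in RA replicate 4. Col3a1 over Col1a1 was 0.0266 in that library and 0.318 to 0.913 in the others. Col6a1 over Col6a2 was 0.382 there and 0.678 to 0.946 elsewhere, Col4a1 over Col4a2 was 1.04 against 1.31 to 2.02, and Col4a1 over Col1a1 was 0.0360 against 0.113 to 0.412. In all 5 ratios RA replicate 4 was thus outside the range of the other 7 libraries. Between groups, the mean log2 ratio (RA+Dipy minus RA) differed by -0.67 for Col1a1 over Col1a2, 1.41 for Col3a1 over Col1a1, 0.32 for Col4a1 over Col4a2, 0.33 for Col6a1 over Col6a2 and 0.44 for Col4a1 over Col1a1. Exact two-sided permutation tests gave p = 0.229, 0.286, 0.0857, 0.314 and 0.714, which became 0.393 for the first 4 and 0.714 for the last after Benjamini-Hochberg adjustment over 5 ratios. The smallest p that 70 assignments allow is 0.0286. Without RA replicate 4 the differences were -0.14, 0.40, 0.23, 0.07 and -0.31.

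**Figure D3:**
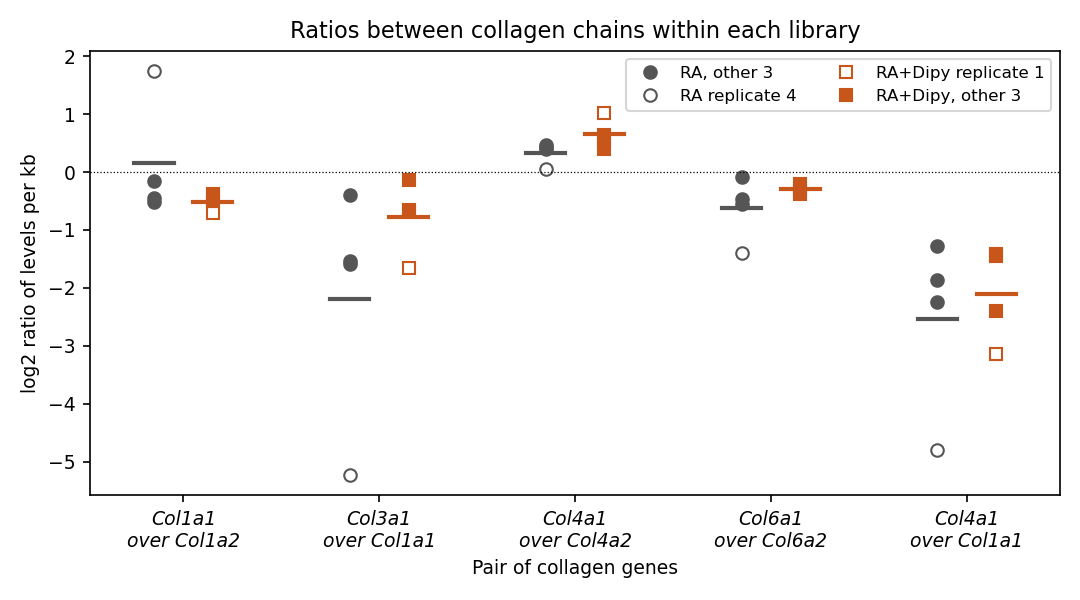
Log2 ratio of levels per kb for 5 pairs of collagen genes in each library. Grey circles are RA mice, orange squares RA+Dipy mice, horizontal bars group means (n = 4), and open symbols RA replicate 4 and RA+Dipy replicate 1; RA replicate 4 is at 1.75 for Col1a1 over Col1a2 and at -5.23 for Col3a1 over Col1a1, outside the other 7 libraries.

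Members did not deviate in 1 direction in the outlying libraries. In RA replicate 4, 15 of the 39 tested collagens lay over 2-fold from their 8-library median (background 39.4%), among them Col1a1, Col7a1 and Col27a1 above it and Col3a1, Col5a2 and Col12a1 below it. RA+Dipy replicate 1 had 7 such members (background 19.7%). In RA+Dipy replicate 3 the median member stood 0.52 above the 8-library median on the log2 scale, and in the other 7 libraries the median member stood between -0.11 and 0.11.

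**Figure D4:**
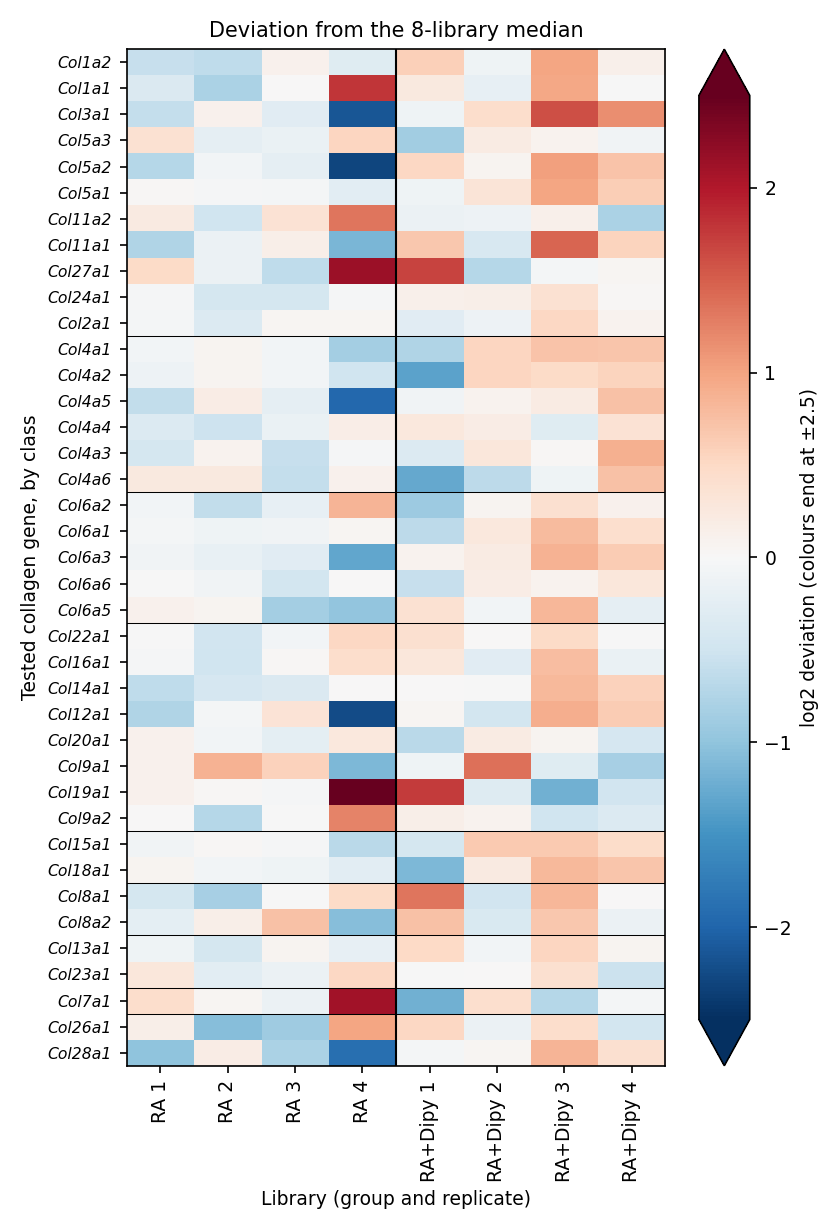
Log2 deviation of each tested collagen (rows, ordered by class as in the plot of levels) from its median over the 8 libraries (columns, group and replicate). Red is above and blue below the median, with colours ending at 2.5; RA replicate 4 mixes deep red (Col1a1, Col7a1, Col19a1) and deep blue (Col3a1, Col5a2, Col12a1), and RA+Dipy replicate 3 is mostly red.

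Transcript GC content moved with these deviations. Over the 39 tested collagens, which share a library's depth and chemistry and are not independent, the correlation of deviation with GC content was 0.61 in RA replicate 1, 0.48 in RA replicate 4, -0.33 in RA+Dipy replicate 1 and -0.35 in RA+Dipy replicate 4. In the other 4 libraries it lay between -0.25 (RA replicate 2) and 0.21. Over all 12604 genes with a GC value it was 0.42, 0.35, -0.29 and -0.19 in the 4 libraries named, and -0.33 in RA replicate 2, 0.16 in RA replicate 3, 0.051 in RA+Dipy replicate 2 and -0.18 in RA+Dipy replicate 3. Single members of RA replicate 4 went both ways. Col1a1 (58.9% GC) deviated by 1.79 and Col3a1 (52.5% GC) by -2.14 on the log2 scale. Against that order, Col19a1 (51.9% GC) deviated by 2.89 and Col8a2 (59.1% GC) by -1.06. With offsets fitted to GC content in each library, an alternative chosen after the data were seen, 35 of 39 collagens had log2 fold changes above 0 (background 51.1%), the median was 0.56, and Col1a1 stood at 0.28, with 0 adjusted calls in edgeR and 11 at an unadjusted p under 0.05 (all higher, background 1.52%, with 0.928% of all genes lower). The part of GC content in the group difference was not tested beyond that.

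**Figure D5:**
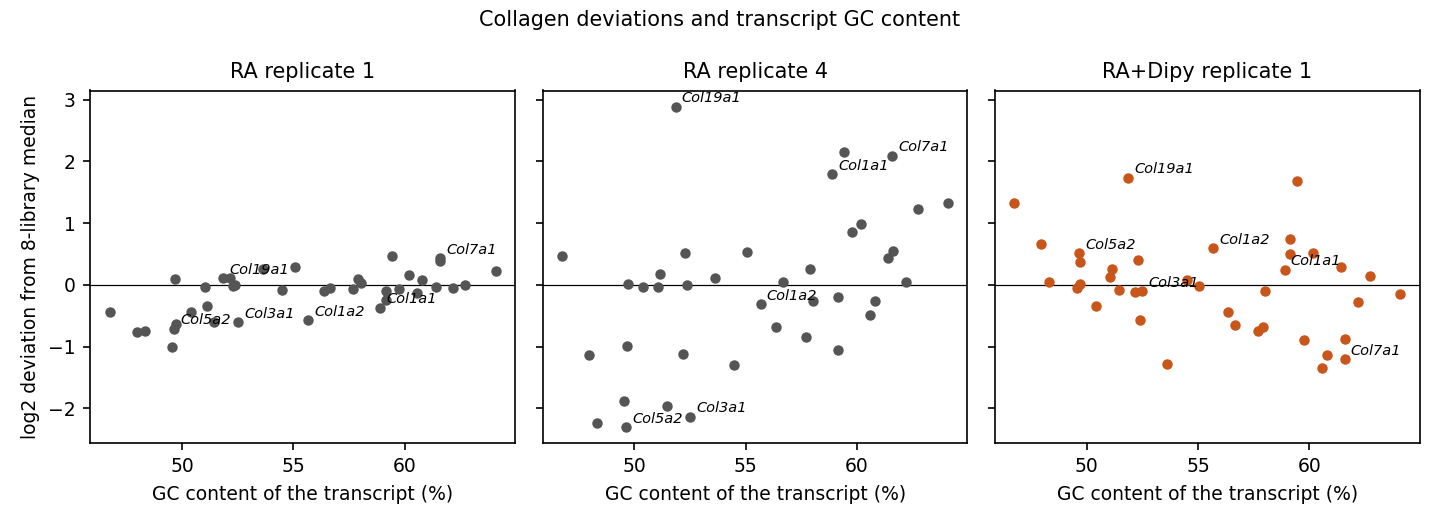
Log2 deviation of each tested collagen from its 8-library median against the GC content of its main transcript (percent), in RA replicate 1, RA replicate 4 and RA+Dipy replicate 1, with 39 points per panel. Points climb with GC content in the first 2 panels (r = 0.61 and 0.48) and slope the other way in the last (r = -0.33).

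Genes that make, trim, bind and cleave collagen were counted from 4 lists. Over all 12755 genes tested in edgeR, 52.2% had log2 fold changes above 0. At an unadjusted p under 0.05, 1.68% of them were higher and 2.15% lower. Of 19 genes for chain processing inside the cell, such as prolyl and lysyl hydroxylases, 18 were tested, 11 had log2 fold changes above 0, the median was 0.07 and 0 had an unadjusted p under 0.05 in edgeR. Of 13 genes for trimming and crosslinking outside the cell, 11 were tested, 6 were above 0 and the median was 0.14. Lox, the lysyl oxidase that crosslinks fibrils, stood at 9.14, 16.2, 16.4 and 8.2 CPM in RA and 21.2, 14.0, 22.4 and 22.3 CPM in RA+Dipy (log2 0.67, SE 0.30), with overlap through RA+Dipy replicate 2. Tll1 encodes a procollagen C-proteinase of the Bmp1 family. It was at 0.158, 0.570, 0.312 and 0.0845 CPM in RA and 0.792, 0.665, 0.847 and 1.20 CPM in RA+Dipy. The groups did not overlap (background 1.46%). The log2 fold change was 1.57 (SE 0.50, edgeR adjusted p = 0.882), and 1.46 without the 2 outlying libraries. In RA replicate 4 the Tll1 level lay below the 0.179 CPM that a count of 0 allows there, on totals before TMM scaling. Of 10 receptors and uptake genes, 9 were tested, with 5 above 0 and a median of 0.11. Of 6 collagen-cleaving proteases 4 were tested, with 3 above 0 and a median of 0.30. Without the 2 outlying libraries the 4 medians were 0.12, 0.34, 0.29 and 0.54 in that order. Ctsk, which encodes cathepsin K, was at 8.63, 8.33, 14.2 and 3.72 CPM in RA and 23.5, 11.3, 28.5 and 15 CPM in RA+Dipy, where replicate 2 fell within the RA range (log2 1.16, SE 0.42). The collagenases Mmp8 and Mmp13 were under the low-count filter.

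Summed marker levels of the other cell types in the muscle also differed between libraries. Counts of markers with log2 fold changes above 0 are to be read beside 52.2% of all genes tested. The 10 fibroblast markers summed to 829 to 1130 CPM in RA and 957 to 1844 CPM in RA+Dipy (7 of 10 above 0, median log2 fold change 0.12), and the 7 tenocyte markers to 479 to 1057 and 615 to 1099 CPM (5 of 7, median 0.47). The highest tenocyte sum in each group was in replicate 3, and the highest fibroblast sum was in RA+Dipy replicate 1. Macrophage markers summed to 127 to 313 CPM in RA and 176 to 350 CPM in RA+Dipy (8 of 9 above 0, median 0.74), adipocyte markers to 26.5 to 86.6 and 31.6 to 283 CPM (4 of 4, median 1.42), and Schwann cell markers to 172 to 469 and 116 to 205 CPM (0 of 6, median -0.94). The adipocyte sum of 283 CPM was that of RA+Dipy replicate 4 alone. RA+Dipy replicates 1 to 3 were at 31.6, 50.5 and 53.0 CPM, below RA replicate 4 at 86.6 CPM. Endothelial markers, at 294 to 382 and 217 to 373 CPM, had a median of 0.09, and mural markers, at 503 to 707 and 483 to 559 CPM, one of -0.13. Without the 2 outlying libraries the medians were 0.20 (fibroblast), 0.30 (tenocyte), 0.68 (macrophage), 2.05 (adipocyte), -0.51 (Schwann cell), 0.11 (endothelial) and 0.20 (mural), so that the mural value changed sign. All markers of these 7 cell types were detected in every library. Satellite cell markers summed to at most 3.94 CPM, with Calcr at 0 in some libraries. The 7 cartilage and bone markers summed to 35.9 to 95.6 CPM in RA and 29.3 to 55.9 CPM in RA+Dipy, and Acan, Matn1, Ibsp and Bglap were at 0 in at least 1 library. The part of cell composition in the collagen values was not tested.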

How the data were processed

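Per the labels and the design text, poly(A) RNA was sequenced as single reads; the labels name TruSeq and the design text a directional NEBNext kit. The authors deposited raw counts per protein-coding gene for each library. Reads had been trimmed (fastp 0.20.0), aligned (STAR 2.7.3a, GRCm38.p6) and counted without strand (HTSeq), per the submitters' processing notes and design text. Their annotation release is not stated. Unstranded counting cannot separate opposite-strand genes: exons of 13 of 44 collagens overlap another gene's, 10 on the opposite strand (including Col4a1, Col4a2, Col4a3, Col5a1, Col15a1 and Col22a1), whereas Col3a1 and Col7a1 overlap a microRNA gene on their own strand. Each table held 21859 lines, and 24 symbols on several lines were summed.

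Libraries were compared with edgeR 4.0.16 (TMM, filterByExpr with a minimum count of 10, robust quasi-likelihood test, Benjamini-Hochberg over all genes tested), and alternatives with DESeq2 1.42.0 and limma 3.58.1 in R 4.3.3. All tests were two-sided. Lengths and GC content came from the transcript with the longest coding sequence in GENCODE vM21. Ratios used counts plus 0.5. Values in every library are given for the 3 most abundant tested genes per class and for members with an unadjusted p under 0.05. The members, classes and gene lists were chosen with earlier results of these data known. Libraries of 1 group are separate mice per the group sizes in the design text. Scaled by total counts alone, no pair within a group agreed within sampling noise (smallest chi-square per degree of freedom 29.7). That value cannot tell separate mice from separate preparations of the same RNA.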

Additional observations from a re-analysis of the deposited data

Results flagged for a closer look

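Of 90 sets of 4 values examined (the tested collagens, the log2 ratios between chains and the collagen share, in each group), 7 held a value whose gap to the nearest other exceeded Dixon's critical share of the set's range for 4 values, which chance gives in about 1 of 20 sets. RA replicate 4 held 4 of them, and the other 3 belonged to RA+Dipy replicate 1. In RA replicate 4, Col1a1 stood at 1825 CPM against 302 to 530 CPM in the other 3 RA libraries. Col7a1 stood at 55.8 CPM there against 11.7 to 17.6 CPM, and Col19a1, a low-level FACIT, at 4.23 CPM against 0.469 to 0.532 CPM. The log2 ratio of Col1a1 over Col1a2 in that library was 1.75 against -0.51 to -0.15. In RA+Dipy replicate 1, Col4a2 was the lowest of its group at 37.9 CPM against 135 to 141 CPM. Col19a1 was the highest there at 1.85 CPM against 0.154 to 0.369 CPM, and so was Col27a1, a minor fibrillar chain, at 9.17 CPM against 1.66 to 2.88 CPM.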

How the results depend on the processing

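Across 696 values of the 39 tested collagens under 18 alternatives, 646 kept their direction and side of the threshold, 8 passed it in limma-voom with library weights, and 42 changed sign. The number of collagens past the adjusted threshold was 0 under all alternatives except those weights, where it was 8. The median log2 fold change of 0.37 was 0.56 with GC offsets, which were added after seeing the data, and 0.55 with library weights. Leaving out 1 library gave 0 calls each time and medians from 0.20 to 0.44. The difference in collagen share of 0.107 percentage points ran from 0.0610 to 0.136 on leaving out 1 library, and was 0.0327 without Col1a1, Col1a2 and Col3a1. Leaving out 1 library, the log2 ratio differences ran from -0.89 to -0.14 (Col1a1 over Col1a2), 0.40 to 2.01 (Col3a1 over Col1a1), 0.20 to 0.41 (Col4a1 over Col4a2), 0.07 to 0.51 (Col6a1 over Col6a2) and -0.31 to 0.86 (Col4a1 over Col1a1, -0.31 without RA replicate 4).

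Col1a1 was at 0.28 with GC offsets, 0.69 with library weights, 0.046 in limma-voom, 0.15 with the replicate block and 0.71 without both outlying libraries, and leaving out 1 library gave -0.52 to 0.68, the latter without RA replicate 4. Col6a2 was at 0.31 with GC offsets, 0.44 with library weights and 0.49 without both, and from -0.27 to 0.28 on leaving out 1 library, above 0 without RA replicate 4 (0.28) or without RA+Dipy replicate 1 (0.11). Col23a1 was at 0.066 with GC offsets, 0.11 with library weights and 0.035 without both, and from -0.30 to 0.038 on leaving out 1 library, above 0 without replicate 4 of RA (0.038) or of RA+Dipy (0.026). Leaving out 1 library gave -0.10 to 0.65 for Col26a1 (-0.10 and -0.078 without RA replicates 2 and 3) and -0.053 to 0.38 for Col16a1 (-0.053 without RA+Dipy replicate 3). Col8a2, at 0.057 to 0.59 on leaving out 1, was at -0.12 without both outlying libraries. With GC offsets, library weights and both outlying libraries left out, Col5a3 was at 0.12, 0.035 and 0.052 and Col20a1 at 0.079, 0.064 and 0.039, and leaving out 1 library gave -0.41 to -0.10 and -0.34 to -0.047. Col4a6 was at 0.093 with library weights and 0.069 without both, and from -0.77 to 0.061 on leaving out 1, the latter without RA+Dipy replicate 1. Col27a1 and Col9a2 were at 0.26 and 0.093 with GC offsets, and leaving out 1 library gave -1.07 to 0.58 and -0.69 to 0.061, both above 0 without RA replicate 4. Without that library Col19a1 was at 0.31, with -2.18 as its lowest. Col2a1 ran from -0.031 (without RA+Dipy replicate 3) to 0.27, and was 0.32 without both outlying libraries. Col9a1, at -0.012 in the report's fit, was at 0.0027 with GC offsets, 0.029 with upper-quartile factors, and from -0.77 to 0.26 on leaving out 1 (for RA replicates 2 and 3, 0.26 and 0.085; for replicates 1, 3 and 4 of RA+Dipy, 0.096, 0.16 and 0.25). The cause was not tested.

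The replicate numbers share no stated source, and same-numbered libraries correlated at -0.20, 0.11, 0.15 and -0.27, with 1 of 4 libraries closest to its own number. With the replicate block edgeR gave 0 adjusted calls and a median of 0.33. Depth limits genes such as Col28a1 and Col6a5, which had as few as 2 counts in a library.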
